A study of Mus musculus with 16 samples.

Results

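The genes described here are 10 genes of hepatocytes around the central vein that depend on Wnt signalling: Axin2, Lgr5, Rnf43, Znrf3, Tbx3, Glul, Oat, Rhbg, Cyp1a2 and Lect2. They were chosen by gene symbol, and 9 of the 35275 gene IDs of the deposited liver table carried one of these symbols. Rhbg was not analysed here. All 9 genes passed the filter on low values (an FPKM of 1 or more in 4 or more libraries), as did 11298 genes in all. FPKM counts the fragments of a gene relative to its length and to the library's depth.

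The samples were total RNA from mouse liver in 4 groups of 4 libraries. WT mice, with an intact Zfp36l1 gene, received a control diet or a diet with ethanol, and so did LKO mice (L1 LKO in the labels), in which Zfp36l1 was deleted in the liver only. Zfp36l1 encodes an RNA-binding protein that promotes the decay of target mRNAs. Which Cre line drove the deletion, and the sex, age and strain of the mice and the feeding time, are not stated in the labels. Libraries are numbered 1 to 4 within a group, and the labels do not pair these numbers across groups.

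In the liver lobule, endothelial cells of the central vein release Wnt ligands and the co-factor R-spondin 3. These keep beta-catenin active in the nearest hepatocytes, where it acts with TCF transcription factors. Axin2, Lgr5, Rnf43 and Znrf3 are transcribed in answer to the signal and also adjust its strength. Glul, Oat, Rhbg and Cyp1a2 carry out functions of these cells such as the capture of ammonia and the oxidation of drugs.

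The label check held in every library: Zfp36l1 measured 14.9 ± 7.54 and 16.8 ± 6.37 FPKM in WT without and with ethanol, and 1.17 ± 0.286 and 1.15 ± 0.610 in LKO (SD, n = 4 each). The summed level of 6 hepatocyte markers lay between 41189 and 72161 FPKM in all 16 libraries. WT ethanol library 2 stood apart. It held 9890475 counted reads, against 19069903 to 24768569 in the 15 others, and mitochondrial transcripts took 22.52% of them, against 3.64% to 6.97%. The Y-linked gene Ddx3y measured 1.43 FPKM there and at most 0.0448 in the others, although Xist, which is transcribed in females, was also present at 6.62 FPKM, against 13.7 to 49.4. Its cholangiocyte markers summed to 74.98 FPKM, the highest of all libraries, and its endothelial markers to 14.6, the lowest. Differences that involve the WT ethanol group are therefore given with and without this library. The other 15 libraries also fell on 2 sides of the first component of the variation within groups (39.9% of that variation), with libraries 1 and 2 of each group on side A and libraries 3 and 4 on side B. The labels name no batch that matches these sides. In whole liver, fewer cells of a type and less RNA per cell cannot be told apart.

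Glul was the only member called on the ethanol diet with all 16 libraries at equal weights on the deposited scale. It encodes glutamine synthetase, which joins ammonia to glutamate in the innermost ring of hepatocytes around the central vein (ENSMUSG00000026473, chromosome 1, 153899944 to 153909723, plus strand, GRCm38). In WT it measured 344, 314, 450 and 532 FPKM in the 4 control libraries and 50.3, 92.5, 149 and 173 FPKM in the 4 ethanol libraries. Every WT ethanol library thus lay below every WT control library, with and without library 2, as in 4.45% and 5.16% of all genes. The mean fell from 410 ± 100 to 116 ± 55.3 FPKM (SD, n = 4 each), to 28.3% of the control level. On the scale log2(FPKM + 1) the difference was −1.93 (SE 0.448, 95% interval −2.87 to −0.98), with an adjusted p of 0.0235 in limma, Benjamini-Hochberg adjusted over all 11298 genes. Values of limma below give all libraries equal weights unless array weights are named. Without WT ethanol library 2 it was −1.87 (adjusted p = 0.0236 in limma).

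In LKO the same diet left Glul at a level between these groups. Its values were 284, 313, 523 and 403 FPKM in LKO control and 217, 87.8, 336 and 394 FPKM in LKO ethanol. These groups overlapped, and LKO ethanol library 2 was the lowest of the 8. The means were 381 ± 107 and 259 ± 136 FPKM (SD, n = 4 each), which is 67.9% of the control level. The difference was −0.72 (95% interval −1.66 to 0.22, adjusted p = 0.721 in limma). Whether the response differed between genotypes was tested as an interaction, the LKO response minus the WT response. It was 1.21 (95% interval −0.13 to 2.54), with an adjusted p of 0.927 in limma, so a difference between the responses was not shown. Averaged over both genotypes, Glul fell by 1.32 (SE 0.316, adjusted p = 0.0167 in limma), as 3.19% of all genes did. Leaving out WT ethanol library 2 gave −1.29 (adjusted p = 0.0112 in limma), with 5.7% of all genes called lower, and Lgr5 was then called too (−0.53, adjusted p = 0.0260 in limma). Array weights, which let noisier libraries count less, called Glul, Lgr5 and Lect2 in this average, with 8.71% of all genes lower. With a term for sides A and B, a fit that leaves library 2 out, Glul, Lgr5 and Tbx3 were called, with 9.32% of all genes lower. In order of mean level the groups were WT control, LKO control, LKO ethanol and WT ethanol, and each group overlapped its neighbour in that order.

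The call of Glul in WT rested on a full set of control libraries. Leaving out WT control library 1, 2, 3 or 4 gave an adjusted p of 0.0549, 0.0531, 0.0542 or 0.0823 in limma, and keeping all genes without a filter gave 0.0614. The difference itself stayed between −2.16 and −1.58 when any single library was left out. The averaged call was made in 16 of 16 such leave-outs and under 11 of 11 other alternatives.

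**Figure D1:**
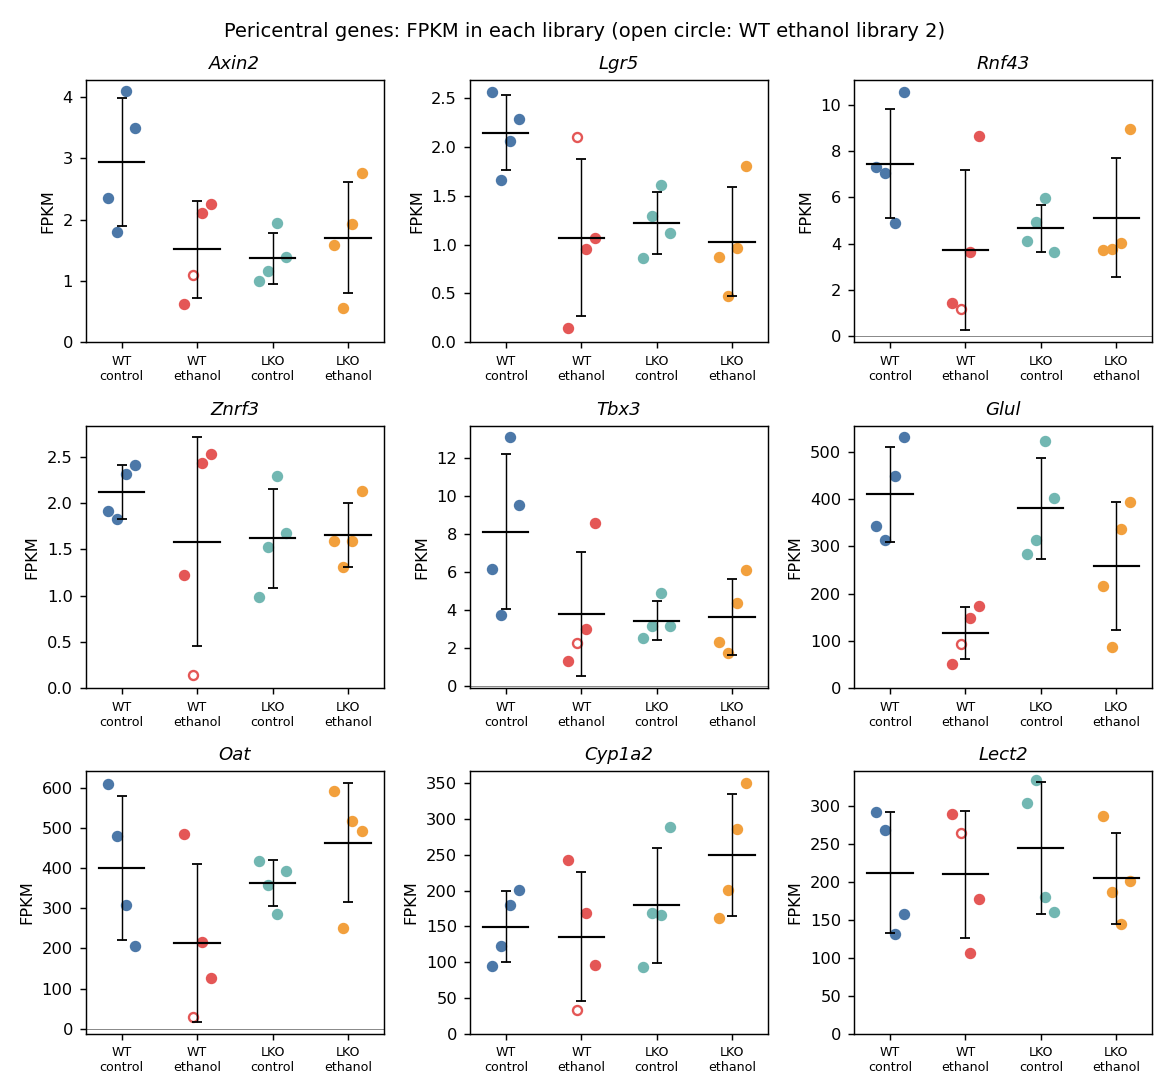
FPKM of the 9 members in each library, by group (horizontal line, mean; bar, SD; n = 4 per group; points from left to right are libraries 1 to 4; open circle, WT ethanol library 2). For Glul the 4 WT ethanol libraries sit between 50.3 and 173 FPKM, below the lowest WT control library at 314, whereas the LKO groups overlap.

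The promoters of Glul, Axin2 and Lect2 are shown because these 3 members had different results. Glul was called lower with ethanol in WT. Axin2 had a lower mean there too and varied together with other pathway genes. Lect2 kept nearly the same mean in WT. Each sequence is the 250 bases before a RefSeq start site on GRCm38.p6, written 5′ to 3′ on the gene's strand, and capitals mark the TCF/LEF core CTTTGAT or its reverse complement ATCAAAG. The windows are chr1:153899679-153899928 on the plus strand for Glul, chr11:108920099-108920348 on the plus strand for Axin2, and chr13:56548539-56548788 on the minus strand for Lect2.
Glul: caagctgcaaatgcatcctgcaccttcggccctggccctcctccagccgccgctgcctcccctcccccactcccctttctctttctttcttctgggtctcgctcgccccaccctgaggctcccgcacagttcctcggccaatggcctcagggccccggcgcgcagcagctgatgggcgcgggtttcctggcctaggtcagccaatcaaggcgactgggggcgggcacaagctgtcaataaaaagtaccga
Axin2: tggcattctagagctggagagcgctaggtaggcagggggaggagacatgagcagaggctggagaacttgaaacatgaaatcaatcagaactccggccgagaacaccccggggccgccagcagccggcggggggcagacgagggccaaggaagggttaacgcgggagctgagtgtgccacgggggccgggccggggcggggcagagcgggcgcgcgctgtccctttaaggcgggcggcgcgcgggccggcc
Lect2: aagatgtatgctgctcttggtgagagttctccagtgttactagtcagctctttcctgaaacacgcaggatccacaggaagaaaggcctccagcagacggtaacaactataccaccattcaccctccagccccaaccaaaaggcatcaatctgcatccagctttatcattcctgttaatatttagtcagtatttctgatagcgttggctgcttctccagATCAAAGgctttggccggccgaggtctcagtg

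Of the members, 6 had a RefSeq window, and Rnf43 had 2, which makes 7 windows. The core on either strand occurred in the window of Lect2 alone, starting 32 bases before the start site, and in 3.21% of all 32851 windows of this length. The looser core CTTTGNT, which includes every match of CTTTGAT, also occurred in Lect2 alone and in 16% of all windows. The shorter run CTTTG occurred in the windows of Cyp1a2 and Lect2 and in 48.6% of all windows, so the members found depend on the pattern. A match here is a run of letters and no evidence of binding, and its absence says only that these letters are not in the window. The windows of Axin2 and Glul held 69.2% and 64.8% G or C, that of Lect2 48.0%.

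The receptor and feedback genes had lower means in WT ethanol than in WT control livers, but none was called with all 16 libraries at equal weights on the deposited scale (Rnf43 was called under 2 other scalings). Among all genes, 1.59% were called lower in this comparison and 4.18% in either direction, and Glul was the only call among the 9 members. Lgr5, a receptor for R-spondins that marks the hepatocytes next to the vein (ENSMUSG00000020140), measured 2.57, 1.66, 2.06 and 2.29 FPKM in WT control and 0.150, 2.11, 0.954 and 1.07 in WT ethanol. The 1 ethanol library within the control range was library 2. With all libraries the difference was −0.68 (95% interval −1.22 to −0.14, adjusted p = 0.143 in limma). Without library 2 the mean was 0.724 ± 0.5002 FPKM (SD, n = 3), every ethanol library lay below every control library, and the difference was −0.91 (adjusted p = 0.0236 in limma). Lgr5 was called when library 2 was left out, with 2.25% of all genes called lower. It was also called with all 16 libraries under array weights, where library 2 had a weight of 0.0418 (−0.69, adjusted p = 0.00250 in limma). Array weights called 5 of 9 members lower in WT (Lgr5, Lect2, Glul, Oat and Rnf43) and 7.04% of all genes. The lowest value, in WT ethanol library 1, came from 14 reads (exact 95% Poisson interval 7.65 to 23.5, for counting error only).

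Axin2 encodes a scaffold of the complex that degrades beta-catenin and is among the most widely used readouts of the pathway (ENSMUSG00000000142). It measured 2.35, 1.80, 4.10 and 3.49 FPKM in WT control and 0.615, 1.09, 2.11 and 2.25 in WT ethanol. These groups overlapped, with the 2 highest ethanol libraries inside the control range. The difference was −0.66 (95% interval −1.27 to −0.06, adjusted p = 0.209 in limma), and −0.59 without library 2.

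Rnf43 and Znrf3 encode membrane ubiquitin ligases that remove Wnt receptors from the cell surface (ENSMUSG00000034177 and ENSMUSG00000041961). Rnf43 measured 7.34, 7.06, 4.89 and 10.6 FPKM in WT control and 1.42, 1.17, 3.65 and 8.68 in WT ethanol. Only WT ethanol library 4 reached the control range. The difference was −1.07 (95% interval −1.90 to −0.24, adjusted p = 0.134 in limma), and −0.79 without library 2 (adjusted p = 0.202 in limma). It was called when WT ethanol library 4 was left out (−1.50, adjusted p = 0.0291 in limma), with median of ratios, with quantile normalization and with array weights. Of 11298 genes, 124, 386, 462 and 795 were called lower in these fits, in this order. Znrf3 measured 1.91, 1.83, 2.32 and 2.42 FPKM in WT control and 1.22, 0.144, 2.44 and 2.53 in WT ethanol. Its difference of −0.40 (adjusted p = 0.461 in limma) rested on library 2, where 9 reads were counted, and was −0.05 without it.

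Tbx3, a T-box transcription factor of pericentral hepatocytes (ENSMUSG00000018604), measured 6.16, 3.71, 13.1 and 9.51 FPKM in WT control and 1.29, 2.23, 3.0 and 8.55 in WT ethanol. Only WT ethanol library 4 reached the control range. The difference was −1.03 (95% interval −1.92 to −0.15, adjusted p = 0.179 in limma) and −0.92 without library 2. At an unadjusted p under 0.05 in limma, 6 of the 9 members were lower in WT ethanol (Axin2, Lgr5, Rnf43, Tbx3, Glul and Oat), where 8.46% of all genes were. Without library 2, 2 of the 9 were (Lgr5 and Glul), where 6.28% of all genes were.

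Oat, Cyp1a2 and Lect2 did not pass the test in WT, and their groups overlapped. Oat, ornithine aminotransferase, feeds glutamate to glutamine synthesis in the same cells (ENSMUSG00000030934). It measured 609, 478, 309 and 205 FPKM in WT control and 486, 29.4, 215 and 125 in WT ethanol, with library 2 far below the rest. Its difference of −1.38 (95% interval −2.65 to −0.11, adjusted p = 0.213 in limma) became −0.64 without library 2, and without WT ethanol library 1 it was −1.98 (adjusted p = 0.0351 in limma). Cyp1a2, a cytochrome P450 that oxidises caffeine and aromatic amines (ENSMUSG00000032310), measured 95.4, 123, 180 and 201 FPKM in WT control and 243, 33.8, 169 and 96.4 in WT ethanol. Its sign turned on library 2, from −0.41 with it to 0.14 without it. Lect2, a protein that hepatocytes secrete (ENSMUSG00000021539), had means of 212 ± 79.6 and 209 ± 83.7 FPKM (SD, n = 4 each), a difference of −0.04 with a 95% interval of −0.84 to 0.76. Without library 2 it was −0.18 (−0.99 to 0.62), and with array weights −0.82 (adjusted p = 0.0413 in limma).

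Over the set, all 9 members had a WT difference below 0 with all 16 libraries, with a median of −0.68 against −0.02 for all genes. With the same libraries Lect2 was above 0 under quantile normalization, and Znrf3 and Cyp1a2 were above 0 under array weights. Without library 2, 8 of 9 were below 0, with a median of −0.64 against 0.17. Levels per length fell in 2 ranges: averaged over the 16 libraries, Oat, Glul, Lect2 and Cyp1a2 measured 360, 291, 218 and 179 FPKM, and Rnf43, Tbx3, Axin2, Znrf3 and Lgr5 measured 5.25, 4.73, 1.88, 1.75 and 1.37. For the low genes the added 1 understates a fold change.

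**Figure D2:**
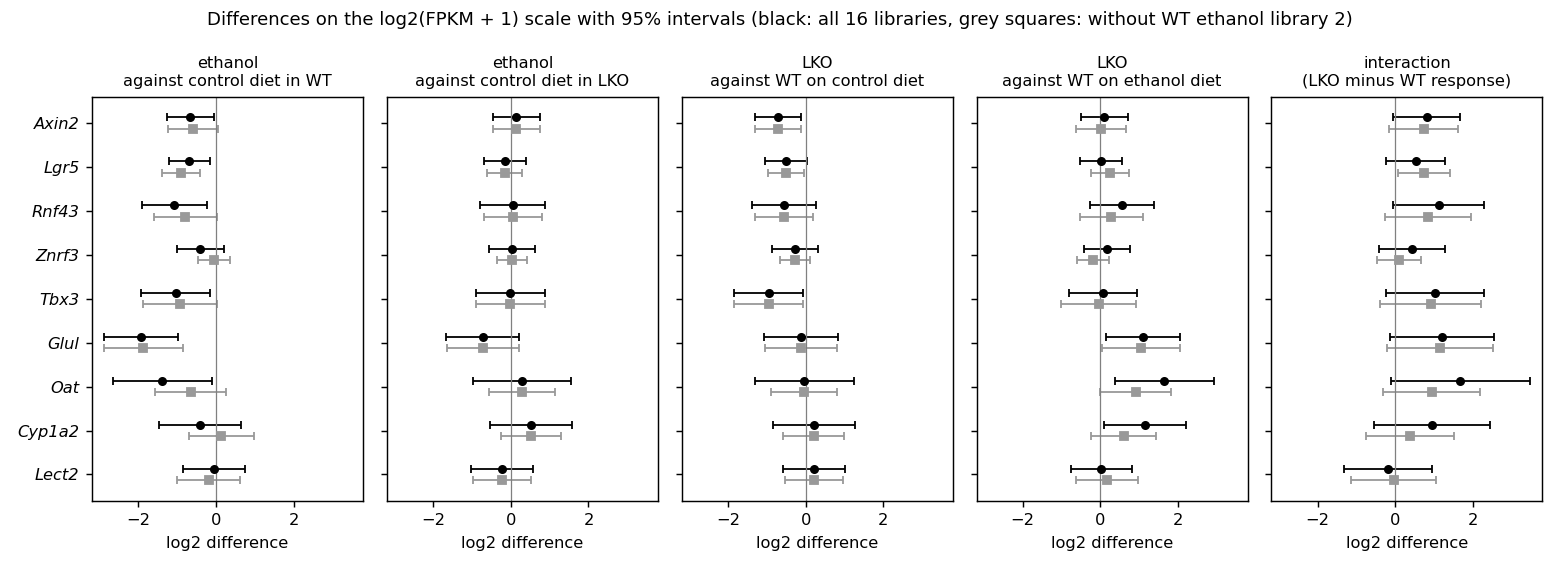
Differences on the log2(FPKM + 1) scale with 95% intervals for the 9 members in 5 comparisons (black, all 16 libraries; grey squares, without WT ethanol library 2). In WT the Glul interval, −2.87 to −0.98, lies farthest below 0, and in LKO every interval crosses 0.

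In LKO livers no member passed the test for ethanol. The 9 differences lay between −0.72 for Glul and 0.52 for Cyp1a2, with 4 below 0 and a median of 0.03 against 0.06 for all genes. By limma 0 of 9 were called and 0 had an unadjusted p under 0.05, and voom on recovered reads also called 0, where 0.425% of all genes were called by limma. Lgr5 measured 0.862, 1.29, 1.61 and 1.12 FPKM in LKO control and 0.876, 0.475, 0.967 and 1.80 in LKO ethanol. Axin2 measured 0.990, 1.16, 1.94 and 1.38 FPKM in LKO control and 1.59, 0.556, 1.92 and 2.76 in LKO ethanol. In both genes LKO ethanol library 2 was the lowest of the 8 LKO libraries and LKO ethanol library 4 the highest. Oat measured 417, 358, 286 and 393 FPKM in LKO control and 592, 251, 517 and 491 in LKO ethanol, a difference of 0.29 (95% interval −0.98 to 1.56).

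The interaction was above 0 for 8 of 9 members, all except Lect2, and the largest values were 1.68 for Oat, 1.21 for Glul, 1.12 for Rnf43 and 1.02 for Tbx3. None was called in limma, none had an unadjusted p under 0.05, voom called 0, and in all genes 0 of 11298 were called (0.0%). Without library 2 these were 0.94, 1.15, 0.83 and 0.91, 0 were called, and Lgr5 had an unadjusted p of 0.0298 (0.75, adjusted p = 0.968 in limma). Under array weights Znrf3 was below 0 and Lect2 above 0. The median over the members was 0.93 against 0.09 for all genes, and without library 2 it was 0.75 against −0.12. Scaling to equal sums moved the median of all genes to 0.20. The WT and LKO responses share no library.

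On the control diet, the pathway genes had lower means in LKO than in WT. Tbx3 measured 8.11 ± 4.07 FPKM in WT and 3.41 ± 1.01 in LKO, Axin2 2.94 ± 1.05 and 1.37 ± 0.414, and Lgr5 2.15 ± 0.384 and 1.22 ± 0.316 (SD, n = 4 each). Of these only Lgr5 had groups that did not overlap, with the highest LKO control library at 1.61 and the lowest WT control library at 1.66 FPKM; LKO lay wholly lower for 7.64% of all genes. The differences were −0.95 for Tbx3 (95% interval −1.84 to −0.07), −0.71 for Axin2 (−1.31 to −0.11) and −0.51 for Lgr5 (−1.05 to 0.03), each with an adjusted p of 0.9997 in limma. In this comparison 0 of 9 members were called by limma and 0 by voom, 2 had an unadjusted p under 0.05 (Tbx3 and Axin2, lower in LKO, where 2.66% of all genes were), and 1 gene of 11298 was called (0.00885%). Glul, at 410 ± 100 and 381 ± 107 FPKM, differed by −0.12 (95% interval −1.06 to 0.83). The median over the members was −0.27 against −0.10 for all genes, and under median-of-ratios scaling, where Glul and Oat were above 0, it was −0.19 against 0.00.

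On the ethanol diet, 3 metabolic members had higher means in LKO than in WT. Oat measured 463 ± 148 FPKM in LKO and 214 ± 196 in WT, Cyp1a2 250 ± 84.8 and 136 ± 90.4, and Glul 259 ± 136 and 116 ± 55.3 (SD, n = 4 each). Each pair of groups overlapped. The differences were 1.64 for Oat (adjusted p = 0.315), 1.14 for Cyp1a2 (adjusted p = 0.389) and 1.09 for Glul (adjusted p = 0.352), all in limma, and without library 2 they were 0.90, 0.59 and 1.03. By limma 0 of 9 were called, voom called 0, and 3 had an unadjusted p under 0.05 (1 without library 2, Glul), with 0.0797% of all genes called in either direction and 3.04% higher at that unadjusted level. Array weights called 2 of 9 higher in LKO, Oat (1.28, adjusted p = 0.0120 in limma) and Glul (0.87, adjusted p = 0.0459 in limma), and 2.77% of all genes. All 9 members were above 0 with all libraries at equal weights, but Lgr5 was below 0 under equal upper quartiles and median of ratios, and Axin2 and Znrf3 were under array weights. Without library 2, 7 of 9 were above 0. Averaged over diets, 0 of 9 were called, and array weights called Axin2 and Znrf3 lower in LKO, with 31.4% of all genes. Leaving out WT ethanol library 1 gave Oat a difference of 2.24 with an adjusted p of 0.0381 in limma. This comparison and the ethanol comparison in WT share the WT ethanol libraries.

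The unlabelled split ran through the same genes. In all 4 groups every side B library lay above every side A library for Axin2, Znrf3, Tbx3 and Glul, 4 of 9 members, where 10.5% of all genes did so. Side A means of Glul were 329 FPKM in WT control, 298 in LKO control and 152 in LKO ethanol, and side B means were 491, 463 and 365. The members were left out when the split was computed. Lect2 had the opposite order of means in each group, for example 280 on side A and 144 on side B in WT control. Within the sides, the WT ethanol difference of Glul was −2.68 on side A (2 control libraries and 1 ethanol library) and −1.60 on side B (2 and 2), and that of Lgr5 −1.42 and −0.66. Within the sides the LKO difference of Glul was −1.11 and −0.33. Mitochondrial transcripts took 4.70% to 6.97% of reads on side A and 3.64% to 4.75% on side B, and the part of the split in these results cannot be read from the labels. With the side as a term and without WT ethanol library 2, Axin2 (−0.70, adjusted p = 0.0186), Lgr5 (−0.96, adjusted p = 0.00531) and Tbx3 (−1.08, adjusted p = 0.0211) were called in WT in limma beside Glul, 4 of 9 members, when 4.7% of all genes were called lower.

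**Figure D3:**
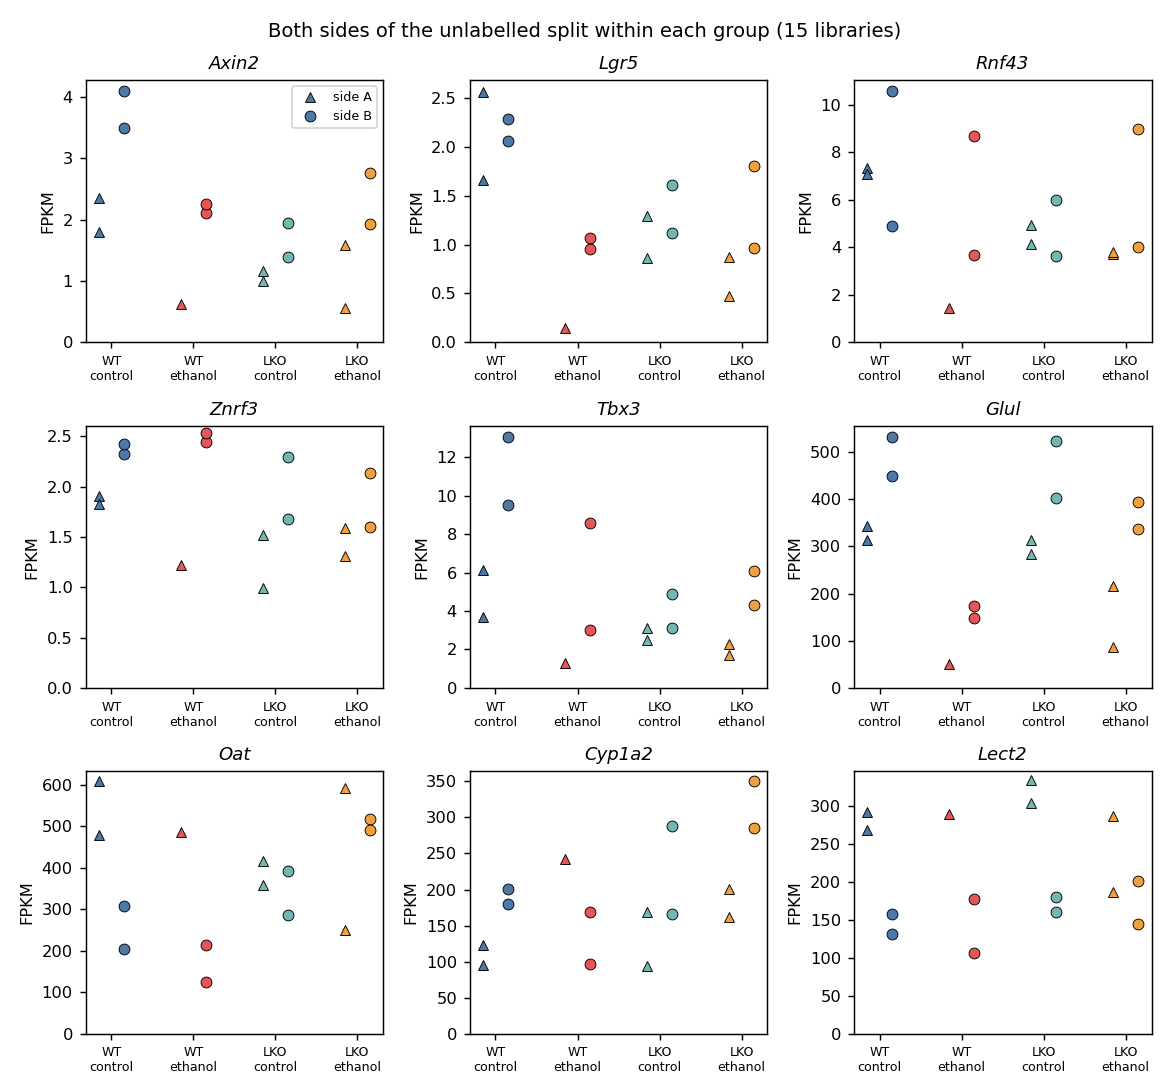
FPKM of the 9 members on both sides of the unlabelled split within each group (triangles, side A; circles, side B; 15 libraries, without WT ethanol library 2). Axin2, Znrf3, Tbx3 and Glul are higher on side B in all 4 groups, and Lect2 has lower side B means.

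Across the 15 libraries, Pearson r of log2(FPKM + 1) lay between 0.63 and 0.92 among Axin2, Lgr5, Rnf43, Znrf3 and Tbx3, and between 0.43 (Znrf3) and 0.85 (Lgr5) for Glul with these genes. The closest pair was Axin2 and Tbx3. Oat, Cyp1a2 and Lect2 had r between −0.61 and 0.08 with the other 6 members. These values are descriptions over libraries that share the groups and the split. Among 10454 genes compared, those most like Axin2 were Tbx3 (r = 0.921), Ddi2 (0.907) and Notum (0.901), a secreted enzyme that inactivates Wnt ligands. Those most like Glul were Paqr9 (0.931), Hlf (0.924), a transcription factor with a daily rhythm in liver, and Plpp3 (0.922). With all 16 libraries r was 0.925, 0.666 and 0.805 for the first 3 and 0.894, 0.902 and 0.751 for the others.

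In the WT livers where Glul fell, 2 Wnt ligands rose. Of 13 ligands, R-spondins and secretion factors listed, 6 passed the filter, and those 2 were Wnt2 and Wnt9b, both known as products of liver endothelial cells. Of all genes 2.58% were called higher. Wnt9b measured 0.186, 0.380, 0.0999 and 0.255 FPKM in WT control and 1.21, 1.03, 0.993 and 1.37 in WT ethanol. The WT control values rest on only 16, 41, 11 and 24 reads. The WT groups did not overlap, and the share of all genes wholly higher in WT ethanol is not given here. The difference was 0.81 (SE 0.153, adjusted p = 0.00951 in limma), or 0.83 without library 2. Wnt9b passed the filter through 4 libraries, 3 of them in WT ethanol, so its place among the genes tested depended on the group where it was high. Wnt2 measured 1.60, 1.36, 0.855 and 0.702 FPKM in WT control and 2.07, 4.84, 2.65 and 2.89 in WT ethanol, again without overlap, with a difference of 0.93 (SE 0.223, adjusted p = 0.0268 in limma) and 0.75 without library 2. The Wnt2 call was lost under 6 of 11 alternatives and in 4 of 16 leave-outs, when WT control library 2, 3 or 4 or WT ethanol library 4 was left out (adjusted p up to 0.101).

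In LKO the differences of Wnt2 and Wnt9b were 0.62 (adjusted p = 0.316) and 0.36 (adjusted p = 0.462) in limma, and Wnt2 was called there with the term for the split (adjusted p = 0.0184), when 10.7% of all genes were called in LKO. Here too every ethanol library lay above every control library for both genes, as it did for 8.15% of all genes. The interactions were −0.31 for Wnt2 and −0.44 for Wnt9b (adjusted p = 0.927 each in limma), and −0.12 and −0.47 without library 2. Rspo3, the R-spondin of the central vein, measured 1.93 ± 0.618 and 2.43 ± 1.83 FPKM in WT and 1.67 ± 0.294 and 3.07 ± 0.483 in LKO without and with ethanol (SD, n = 4 each). WT ethanol library 2 had the lowest Rspo3 value of all, 0.127 FPKM, which rests on 3 reads. The WT difference was 0.04 with this library and 0.50 without it (adjusted p = 0.963 and 0.146 in limma). In LKO the difference of Rspo3 was 0.61 (adjusted p = 0.665 in limma), with every ethanol library above every control library. Averaged over genotypes it rose without library 2, where 14.8% of all genes did. The summed level of 8 endothelial markers ranged from 41.8 to 75.7 FPKM in WT control, 14.6 to 90.2 in WT ethanol, 32.0 to 90.9 in LKO control and 44.5 to 101 in LKO ethanol. None of these markers was called in WT or in LKO alone with all libraries, but Lyve1 and Thbd rose with ethanol averaged over genotypes, as 4.59% of all genes did and as Wnt2 and Wnt9b did. Without library 2, Lyve1 and Thbd rose in both genotypes and Cdh5 in WT. Then 7.23% of all genes were called higher in WT and 3.62% in either direction in LKO. In the average without library 2, 4 markers rose (Pecam1, Lyve1, Cdh5 and Thbd), with 14.8% of all genes. The part of endothelial content in the Wnt2 and Wnt9b differences was not tested.

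No receptor or signal carrier was called with ethanol in WT or in LKO alone, where 4.18% and 0.425% of all genes were. This holds for 10 receptors of 16 listed and 21 intracellular components of 22 listed that passed the filter, with all 16 libraries, by limma and by voom. Without library 2 limma called Csnk1e, a casein kinase of the pathway, higher in both genotypes. Then 7.23% of all genes were called higher in WT and 3.62% in either direction in LKO. Averaged over genotypes, Tcf7l1, a TCF factor, rose with all libraries, where 4.59% of all genes did, and without library 2 Csnk1a1, Csnk1e, Tcf7l1 and Tnks2 rose, 4 of 21, where 14.8% did. Ctnnb1, which encodes beta-catenin, measured 54.6 ± 8.91 and 49.1 ± 27.0 FPKM in WT and 51.0 ± 5.20 and 64.8 ± 12.2 in LKO without and with ethanol (SD, n = 4 each). Library 2, at 11.3 FPKM, was the lowest, and the WT difference was −0.41 with it and 0.17 without it. Tcf7l2, the main TCF factor of hepatocytes, had group means between 3.17 and 4.14 FPKM. Lgr4, the R-spondin receptor found across the lobule, measured 11.7 ± 0.945 and 7.90 ± 2.77 FPKM in WT, without overlap. WT ethanol lay wholly lower for 4.45% of all genes. Lgr4 differed by −0.58 (adjusted p = 0.242 in limma), or −0.31 without library 2 (adjusted p = 0.339). On the control diet 20 of 21 intracellular components were below 0 in LKO against WT, with a median of −0.30 against −0.10 for all genes and 0 called, and 16 of 21 were under median of ratios. Of 11 secreted inhibitors 2 passed the filter, and 0 were called in either genotype by limma or voom.

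**Figure D4:**
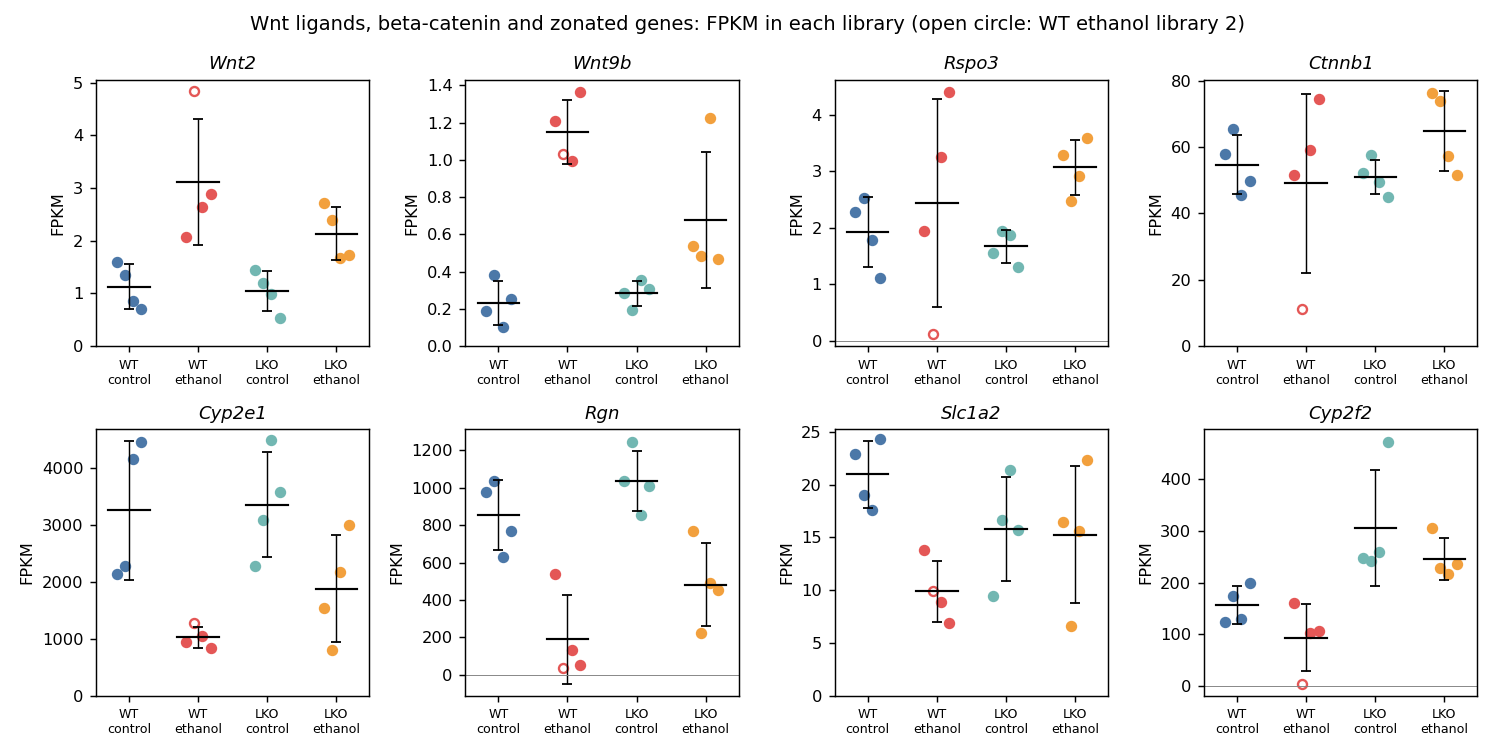
FPKM of Wnt2, Wnt9b, Rspo3, Ctnnb1, Cyp2e1, Rgn, Slc1a2 and Cyp2f2 in each library, by group (line, mean; bar, SD; n = 4 per group; open circle, WT ethanol library 2). Wnt2 and Wnt9b lie higher in WT ethanol than in any WT control library, and Cyp2e1 and Rgn lie lower.

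Of 13 other Wnt targets listed, 7 passed the filter, and 0 were called in either genotype by limma or voom. Notum measured 13.5 ± 4.43 and 7.84 ± 3.39 FPKM in WT and 8.48 ± 2.28 and 9.06 ± 3.51 in LKO without and with ethanol (SD, n = 4 each), with a WT difference of −0.77 (adjusted p = 0.234 in limma), or −0.42 without library 2 (adjusted p = 0.375). Without library 2, Myc rose in WT, where 7.23% of all genes were called higher, and Tcf7 in LKO, where 3.62% were called in either direction.

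Of 18 other pericentral genes, all of which passed the filter, 5 fell with ethanol in WT and 0 rose, where 1.59% of all genes were called lower. Their median was −1.003 against −0.02 for all genes, and −0.69 against 0.17 without library 2. Cyp2e1, the cytochrome P450 that oxidises ethanol, measured 2142, 2282, 4164 and 4468 FPKM in WT control and 941, 1275, 1057 and 833 in WT ethanol. The groups did not overlap, and WT ethanol lay wholly lower for 4.45% of all genes. The difference was −1.61 (SE 0.376, adjusted p = 0.0241 in limma), or −1.72 without library 2. The call was lost without WT control library 3 or 4 or WT ethanol library 4 (adjusted p up to 0.0903), with no filter and with median of ratios. Rgn, regucalcin, fell from 853 ± 188 to 189 ± 237 FPKM (difference −2.95, adjusted p = 0.0135), and Cyp7a1, the rate-limiting enzyme of bile acid synthesis, from 86.0 ± 39.7 to 10.2 ± 7.91 (difference −3.19, adjusted p = 0.0139), both SD with n = 4 and limma. Without library 2 these were −2.44 and −2.91. The call of Rgn was kept in every alternative and leave-out run, that of Cyp7a1 in all except without WT control library 1 (adjusted p = 0.0534). Gulo, the last enzyme of vitamin C synthesis, and Cyp2c54, which has near-identical relatives that reads may not tell apart, were the other 2 and are named after their values were seen. Gulo fell from 317 ± 93.1 to 121 ± 51.8 FPKM (adjusted p = 0.0290 in limma; SD, n = 4 each), by 1.48 on the log2 scale and by 1.06 without library 2. Its call was lost without WT control library 1, 2 or 4 (adjusted p up to 0.103), with no filter and with equal sums. The call of Cyp2c54 was lost in 15 of 16 leave-outs, all except WT ethanol library 1 (adjusted p up to 0.123), and under 7 of 11 other alternatives.

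In LKO 0 of these 18 genes were called with all libraries at equal weights, with a median of −0.09, and voom also called 0. Of the 5 that fell in WT, some were called lower in LKO under other settings: Cyp2e1 (−0.95, adjusted p = 0.0245) and Gulo (adjusted p = 0.0120) with the term for the split, Gulo with array weights (−0.81, adjusted p = 0.0277), when 7.69% of all genes were called, and Cyp7a1 without LKO ethanol library 4 (−2.41, adjusted p = 0.0393), when 0.779% were, all in limma. The term for the split called 10.7% of all genes in LKO. With all libraries the LKO differences were −1.22 for Rgn, −0.77 for Gulo and −1.61 for Cyp7a1 (adjusted p = 0.579, 0.542 and 0.445 in limma). Averaged over genotypes, 4 of the 18 fell (Cyp2e1, Gulo, Rgn and Cyp7a1), where 3.19% of all genes did. Cyp2e1 measured 3362 ± 930 FPKM in LKO control and 1884 ± 937 in LKO ethanol (difference −0.95, adjusted p = 0.413 in limma; SD, n = 4 each). Without library 2, Cyp2c29 and Cyp3a11 rose in LKO, where 3.62% of all genes were called in either direction. Cyp2c54 was then no longer called in WT (adjusted p = 0.0742 in limma). Slc1a2, the glutamate transporter that marks the same cells as Glul, measured 21.0 ± 3.17 and 9.88 ± 2.89 FPKM in WT and 15.8 ± 4.90 and 15.3 ± 6.51 in LKO (SD, n = 4 each). Its WT groups did not overlap, with ethanol wholly lower as in 4.45% of all genes. The difference was −1.04 (adjusted p = 0.0833 in limma), or −1.06 without library 2 (adjusted p = 0.0592). Of the 18 genes, 0 were called in the interaction by limma or voom.

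Of 16 periportal genes, which mark hepatocytes at the other end of the lobule, 1 rose (Sdsl, a serine dehydratase-like enzyme) and 1 fell (G6pc, the glucose-6-phosphatase of glucose release) with ethanol in WT, where 2.58% of all genes were called higher and 1.59% lower. Without library 2, Sdsl and Hsd17b13 rose and 0 fell, where 7.23% of all genes were called higher. Sdsl differed by 2.001 (adjusted p = 0.00544 in limma) and by 1.57 without library 2. G6pc differed by −3.28 (adjusted p = 0.0471 in limma), by −2.33 without library 2 and by −1.01 with array weights. Its call was lost under 7 of 11 other alternatives and in 14 of 16 leave-outs, all except WT ethanol library 3 and LKO ethanol library 2 (adjusted p = 0.0643 without WT ethanol library 2). In LKO 0 were called with all libraries at equal weights by limma or voom. Sdsl was called there without library 2 (0.86, adjusted p = 0.0219), when 3.62% of all genes were called in LKO, with array weights on all libraries (0.80, adjusted p = 0.0117) and with the term for the split (adjusted p = 0.00843), all in limma. Array weights and the term for the split called 7.69% and 10.7% of all genes in LKO. Cyp2f2, a periportal cytochrome P450, measured 156 ± 36.2 and 93.3 ± 64.8 FPKM in WT and 305 ± 112 and 247 ± 40.6 in LKO without and with ethanol (SD, n = 4 each), with library 2 at 4.44. The median of the 16 genes in WT was −0.30 with all libraries and 0.58 without library 2, so its sign depends on that library. Cyp1a1, which shares the aryl hydrocarbon receptor with Cyp1a2, had group means of 0.175 to 0.309 FPKM. Of 5 listed targets of that receptor 2 passed the filter, and 0 were called in WT or LKO with all libraries by limma or voom. Without library 2 Nqo1 rose in both genotypes, where 7.23% of all genes were called higher in WT and 3.62% in either direction in LKO.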

How the data were processed

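The authors deposited 1 table of FPKM values, with 1 column per library, and the submitters' processing notes name fastp, STAR 2.6.1, HTSeq, DESeq2 and the build mm10, without their roles or the annotation. Columns were matched to samples by title. Symbols and positions came from GENCODE M21 on GRCm38 (34490 of 35275 IDs). In genes above 0 in at least 4 libraries, 100% of FPKM values came within 0.1 of whole reads, and this gave the reads behind each value. For the 16 libraries these were 9890475 to 24768569 reads.

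Values were taken as log2(FPKM + 1), a scale that understates the changes of low genes. A group-means model was fitted to 11298 genes (FPKM of at least 1 in at least 4 libraries) with limma 3.58.1 in R 4.3.3 (eBayes with trend), with 7 contrasts, two-sided tests and Benjamini-Hochberg adjustment over all genes. Calls were made at an adjusted p below 0.05. The fit was tested on simulated data with known changes and the same spread set for every gene. That simulation held no split and no library with an outlying profile, so it does not show how the fit handles these. As FPKM values are not counts, the main test was on the log scale, and voom on the recovered reads was an alternative. The members and lists were chosen with earlier results of these data known. Named are the members, fixed genes of each list, and at most 4 further genes of a list with the smallest unadjusted p. Where nothing says that libraries came from separate animals, p-values measure only the spread between these libraries.

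Alternatives were another pseudocount, other filters, 4 scalings, array weights, voom on recovered reads, the side of the split as a covariate, and leaving out each library. Quantile normalization without WT ethanol library 2 was added after seeing the data. Results of some genes are not reported here.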

Additional observations from a re-analysis of the deposited data

Results flagged for a closer look

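Rnf43 in LKO ethanol library 4 measured 8.97 FPKM, far from the 3 other libraries of its group, which lay between 3.71 and 4.02. It was the only sample far from its group among 36 checks of 9 members in 4 groups, where chance alone gives about 1 in 20. The same library had the highest Axin2, Lgr5, Znrf3, Tbx3, Glul and Cyp1a2 values of the LKO ethanol group. The cause was not tested.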

How the results depend on the processing

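No paired analysis was run, because the labels give no shared replicate numbers. Some titles carry adjacent numbers in a control and an ethanol library of the same genotype, but no label says what adjacent numbers share. Of 539 differences of the members under the 11 other alternatives, 499 kept their direction and side of the threshold.

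Genes called with ethanol in WT numbered 472 (292 higher, 180 lower). With no filter they numbered 283, with equal sums 253 (133 higher, 120 lower), with equal upper quartiles 763 (363 and 400), with median of ratios 765 (379 and 386), with quantile normalization 932 (470 and 462), with array weights 4334, with the side term 2229, and with quantile normalization without WT ethanol library 2 1098. In LKO, where 48 were called, the counts were 18 with no filter, 26 with the filter at FPKM 0.1, 25 with equal sums, 103 with equal upper quartiles, 122 with median of ratios, 105 with quantile normalization, 869 with array weights, 1206 with the side term and 501 with quantile normalization without library 2. Averaged over genotypes, 879 ethanol calls became 535 with equal sums, 1338 with median of ratios, 1452 with quantile normalization, 4147 with array weights, 3684 with the side term and 2255 with quantile normalization without library 2.

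For LKO against WT on control diet, 1 call became 2 with quantile normalization, 260 with array weights, and 9 with the side term and with quantile normalization without library 2. On ethanol diet, 9 calls became 3 with no filter, 5 with equal upper quartiles and with voom, 3465 with array weights and 178 with the side term. Averaged over diets, 16 calls became 5 with no filter, 8 with the filter at FPKM 0.1, 10 with voom, 3848 with array weights, 1255 with the side term and 62 with quantile normalization without library 2. The interaction count of 0 became 506 with array weights, none of them a member. Among array weights, 0.0418 for WT ethanol library 2 was the lowest and 5 for WT ethanol library 3 the highest.

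Leaving out 1 library gave 146 to 1071 calls with ethanol in WT, 6 to 409 in LKO and 519 to 2312 averaged. It gave 1 to 5 for LKO against WT on control diet, 1 to 387 on ethanol diet, 8 to 121 averaged, and 0 to 6 for the interaction. The highest counts with ethanol came without WT ethanol library 2, and the 387 and 6 without WT ethanol library 1.

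Signs turned for these values near 0. For ethanol in WT, Znrf3 was 0.139 and Cyp1a2 0.200 with array weights, Cyp1a2 0.059 with the side term and 0.129 with quantile normalization without library 2, and Lect2 0.004 with quantile normalization. For ethanol in LKO, Rnf43 was −0.012 and Znrf3 −0.005 with median of ratios, −0.036 and −0.019 with quantile normalization with or without library 2, Tbx3 0.002 with equal sums and 0.180 with array weights, and G6pc 0.441 with array weights. For LKO against WT on control diet, Glul was 0.019 and Oat 0.101 with median of ratios, and Oat 0.009 with equal upper quartiles. On ethanol diet, Axin2 was −0.103 and Znrf3 −0.317 with array weights, Znrf3 −0.125 with the side term, and Lgr5 −0.023 with equal upper quartiles and −0.012 with median of ratios. The interaction was −0.008 for Znrf3 and 0.375 for Lect2 with array weights. Lgr5 averaged over diets was 0.059 with quantile normalization without library 2. The cause of each was not tested.

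When 1 library was left out, signs turned within these ranges. For ethanol in LKO they were −0.042 to 0.382 for Axin2, −0.211 to 0.155 for Rnf43, −0.090 to 0.152 for Znrf3, −0.256 to 0.205 for Tbx3 and −0.588 to 0.460 for G6pc. For ethanol in WT they were −0.795 to 0.141 for Cyp1a2 and −0.243 to 0.251 for Lect2. For LKO against WT on control diet they were −0.281 to 0.020 for Glul, −0.315 to 0.207 for Oat and −0.056 to 0.481 for Cyp1a2. On ethanol diet they were −0.100 to 0.337 for Axin2, −0.234 to 0.244 for Lgr5, −0.183 to 0.358 for Znrf3, −0.215 to 0.472 for Tbx3 and −0.265 to 0.213 for Lect2. For the interaction Lect2 ranged from −0.479 to 0.015.

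The Glul call in WT was lost with no filter (−1.93, adjusted p = 0.0614 in limma). Array weights also called Lgr5 (−0.69), Oat (−0.99), Rnf43 (−0.70) and Lect2 (−0.82) in WT, Glul (0.87) and Oat (1.28) in LKO against WT on ethanol diet, Lgr5 and Lect2 with ethanol averaged over genotypes, and Axin2 and Znrf3 averaged over diets, and median of ratios and quantile normalization called Rnf43 (−1.08 and −1.10). Few reads limit the precision of Lgr5 and Znrf3, whose smallest values rest on 14 reads, in a library of ordinary depth, and 9 reads, in WT ethanol library 2.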

Other observations

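Genes outside the lists set some libraries apart, and they were chosen after their values were seen. LKO control library 4 had 279 FPKM of Cyp2d9 and 411 of Mup20, which are known for higher levels in male liver, against at most 50.2 and 106 in the 15 others. Sult2a1, known for higher levels in female liver, was at 0.00 FPKM there, against at least 38.4 in the others, and Ddx3y was at 0.00. Among the members, Cyp1a2 was highest of the LKO control group in this library, at 289 FPKM. Leaving the library out did not change any call of a member.

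Dbp, a clock-driven transcription factor with a strong daily rhythm in liver, measured 27.4 ± 22.4 and 11.6 ± 13.02 FPKM in WT and 49.1 ± 11.7 and 4.76 ± 4.16 in LKO without and with ethanol (SD, n = 4 each). In WT control, library 3 had 3.51 FPKM of Dbp and 7.19 of the clock gene Arntl, where the 3 others had 23.4 to 57.7 and 0.289 to 0.379. Arntl measured 0.696 to 2.20 FPKM in WT ethanol, 0.200 to 0.431 in LKO control and 0.849 to 2.78 in LKO ethanol. Apart from WT control library 3, every control library thus lay below every ethanol library for Arntl. The labels used here give no time of sampling. The part of these clock gene differences in the Glul result and the other ethanol results was not tested.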
